A study of Homo sapiens with 14 samples.

Results

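The genes described here are 43 components of the machinery that starts and carries out DNA replication, chosen by their symbols from the 57756 genes quantified in A549 cells, an established human lung carcinoma line. They were chosen with earlier results of these data known. They comprise the MCM helicase (MCM2 to MCM7), origin licensing factors (ORC1, ORC6, CDC6, CDT1), helicase activators (MCM10, CDC45, GINS1 to GINS4), the sliding clamp and its loader (PCNA, RFC1 to RFC5), polymerases and primase (POLA1, POLA2, PRIM1, PRIM2, POLD1, POLD2, POLD3, POLE, POLE2), the single-strand binding protein RPA (RPA1 to RPA3), FEN1 and LIG1 of Okazaki fragment processing, RRM1, RRM2 and TYMS of nucleotide supply, and CCNE1, CCNE2, CDK2 and E2F1 of G1/S control. The study asked how wild-type U2AF1 and its S34F mutant alter splicing, and sequenced total RNA from 14 libraries in 7 groups of 2. Untreated A549 cells had received neither siRNA nor virus. The control siRNA group received an empty vector and a control siRNA, and the knockdown group an empty vector and an siRNA against U2AF1. The other 4 groups received the U2AF1 siRNA and a virus carrying 1 of 2 U2AF1 isoforms, named v1 and v3, as wild type or S34F, so that every construct group also carries the knockdown. Gene levels are FPKM (fragments per kilobase of transcript, relative to all mapped fragments), summed over the isoforms of a gene. The labels do not say whether the 2 libraries of a group stem from separate cultures, and if they do not, the p-values reflect technical spread alone.

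Replication origins are licensed in G1, when ORC, CDC6 and CDT1 load the ring-shaped MCM helicase onto DNA. At the G1/S transition, cyclin E with CDK2 and another kinase switch the helicase on by adding CDC45 and GINS, primase and polymerase alpha lay down primers, the RFC complex loads the PCNA clamp, and polymerases delta and epsilon copy the lagging and leading strands. Many of these genes are transcribed as cells enter S phase by E2F factors, which bind a short GC-rich sequence. U2AF1, the smaller partner in the U2AF heterodimer, recognises the AG at the 3′ end of an intron, and its S34F mutation, found in myeloid and lung tumours, is known to change which base before that AG is preferred. In bulk RNA, a smaller share of cells in S phase and less of each RNA per cell cannot be told apart.

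Promoters are shown first, since the E2F words were a feature that many of the genes shared and the rule did not use. The RefSeq promoter windows (GRCh38.p14, 250 bases before to 50 after each start) matched 35 of the 43 genes, and 18 of these 35 (51.4%) held at least 1 of the words TTTCCCGC, TTTGGCGC, TTTCGCGC or TTTGCCGC on either strand, where overlapping words on opposite strands were each counted. The same words were found in 20 of 59 (33.9%) matched genes of 3 lists of other G1, replication fork and S phase supply genes, in 5.40% of all protein-coding genes with a window, and in 3.99% of all genes with one. The shown 60-base stretches lie upstream of MCM6 (chr2:135876562-135876621, minus strand), PCNA (chr20:5126648-5126707, minus strand) and POLA1 (chrX:24693755-24693814, plus strand), and capitals mark the words, 152, 59 and 137 bases before the start. MCM6 holds overlapping words there. The presence of a word is a description of the letters, not evidence of binding.
MCM6 promoter: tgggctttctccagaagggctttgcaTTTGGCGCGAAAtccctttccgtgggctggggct
PCNA promoter: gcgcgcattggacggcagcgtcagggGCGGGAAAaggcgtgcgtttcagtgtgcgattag
POLA1 promoter: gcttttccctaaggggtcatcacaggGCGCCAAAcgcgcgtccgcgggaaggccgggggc

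The other sequences are the exons and the splice acceptor behind the isoform results, read from GENCODE release 29 transcripts (GRCh38). RFC2 exon 4 of 11 (chr7:74249012-74249118, minus strand) is a coding exon of 107 bases, and the isoform that lacks it is annotated as a target of nonsense-mediated decay. CCNE1 exon 9 of 12 (chr19:29821996-29822130, plus strand) is a coding exon of 135 bases, a multiple of 3. The 20 intron bases that precede each exon are given with their last 3 bases in capitals, which end in CAG for RFC2 and TAG for CCNE1. The POLD3 sequence spans the acceptor of exon 9 of 12 (chr11:74629187-74629226, plus strand), with 30 intron bases, the AG in capitals, and 10 exon bases. An annotated POLD3 isoform with retained intron starts 354 bases before the end of that intron and reads through this acceptor.
RFC2 exon 4: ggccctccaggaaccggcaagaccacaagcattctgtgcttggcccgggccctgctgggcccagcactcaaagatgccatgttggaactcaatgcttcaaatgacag
RFC2 acceptor before exon 4: actggagatctcattccCAG
CCNE1 exon 9: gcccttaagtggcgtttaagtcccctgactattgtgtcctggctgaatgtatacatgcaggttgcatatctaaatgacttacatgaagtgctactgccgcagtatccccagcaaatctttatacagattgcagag
CCNE1 acceptor before exon 9: ttctctctgttttccttTAG
POLD3 acceptor before exon 9: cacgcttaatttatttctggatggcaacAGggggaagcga

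U2AF1 followed the labels. Its level was 117 and 119 FPKM with control siRNA, 16.2 and 28.9 with knockdown, and 2114 to 3852 in the 8 construct libraries, a sum that does not separate the transgene from the endogenous gene or S34F from wild type. The 8 markers of A549 cells summed to 6229 to 8447 FPKM per library. KRT8, KRT18, ALDH1A1, NQO1 and AKR1B10 were the most abundant of them, and EPCAM the least, at 2.20 to 5.53 FPKM. CDKN2A, which A549 cells have deleted, did not exceed 0.247 FPKM. Fibroblast markers summed to at most 15.9 FPKM over 7 genes. Of these COL1A1 was at 6.60 to 9.37 FPKM and THY1 reached 5.89, while DCN was at 0 in all groups. Leukocyte and endothelial markers summed to at most 2.68 over 6 genes. Between 13734 and 14705 genes reached 1 FPKM in a library, relative depth ran from 0.798 to 1.20, and the upper quartile of expressed genes from 32.8 to 35.1 FPKM. In v1 S34F replicate 2 an isoform of 75 bases took 33.1% of the FPKM sum, and in knockdown replicate 1 an isoform of 89 bases took 8.81%, against 0.494 to 1.06% for the top isoform elsewhere.

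All 43 genes were expressed above the limit of 1 FPKM and entered the tests. PCNA, the sliding clamp, had the highest mean level over the 14 libraries, 292 FPKM, followed by the helicase subunits MCM7 at 175 and MCM4 at 142, then TYMS, which makes thymidylate, at 132, and RRM2, the small subunit of ribonucleotide reductase, at 127. The lowest levels belonged to CCNE2, the second E-type cyclin, at 5.66 FPKM, the primase subunit PRIM2 at 10.3 and GINS3 at 10.7. Subunits of a complex did not share a level. Among the 6 MCM genes the means ran from 44.3 to 175 FPKM, and among the 9 polymerase and primase genes from 10.3 to 118, where POLD2, an accessory subunit of polymerase delta, was the highest. TYMS varied least among the libraries, with a highest value 1.23 times the lowest, and POLA2, the accessory subunit of polymerase alpha, varied most, at 3.48 times. TYMS overlaps the antisense gene ENOSF1 (29.9 FPKM on average) over 3255 bases, and 15 of the 43 genes overlap some other gene of at least 1 FPKM, so that without stated strand information their reads may be shared.

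**Figure D1:**
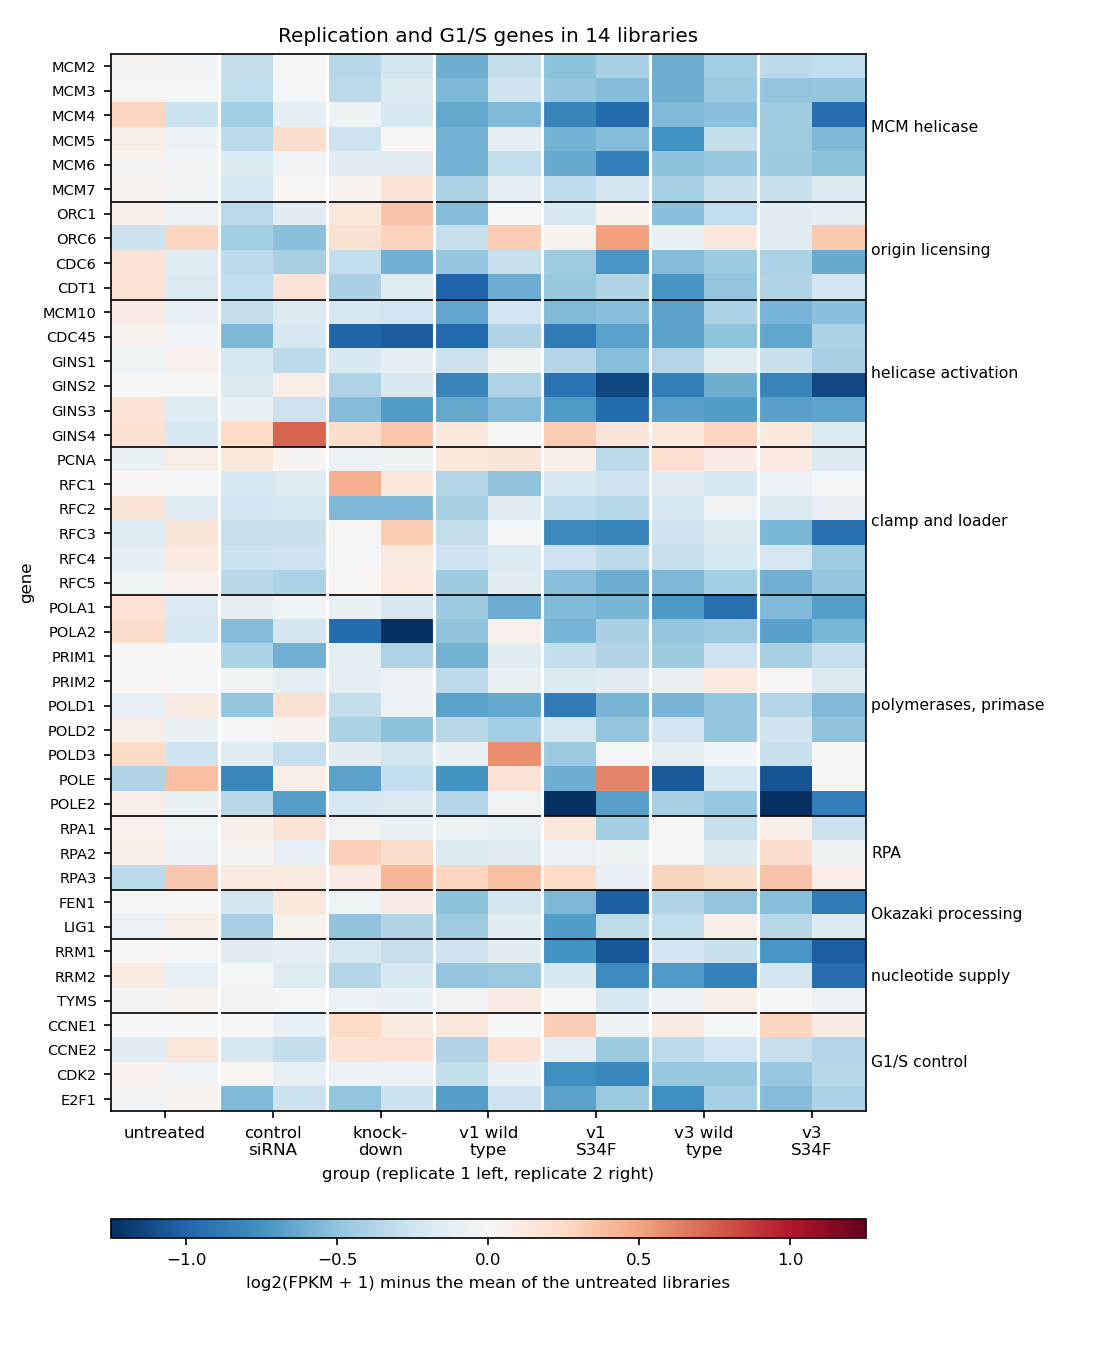
Each row is a gene and each column a library, coloured by log2(FPKM + 1) minus the mean of the 2 untreated libraries, with replicate 1 to the left of replicate 2 and black lines between roles. Most rows are blue outside the untreated columns, with 33 to 39 of the 43 genes below the untreated mean in the construct libraries, 36 and 29 in the control siRNA libraries and 32 and 29 in the knockdown libraries, while POLE is paler or redder in replicate 2 of all 7 groups.

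The first comparison, control siRNA against untreated cells, covers the effect of the vector and siRNA procedure. No gene of the 43 passed the test, where 0.0% of all 14233 genes tested in limma passed, and 5 had an unadjusted p under 0.05. With the replicate number as a block none passed either, where 0.0141% of all genes did. PRIM1, the catalytic primase subunit, stood at 46.7 and 46.8 FPKM in untreated cells and at 35.3 and 30.5 with control siRNA (log2 change -0.50, SE 0.16, adjusted p = 0.927). E2F1, the transcription factor of the G1/S programme, was at 23.9 and 25.7 FPKM against 16.6 and 20.3, and GINS4 went the other way, from 34.3 and 26 to 35.4 and 49.9. The median log2 difference of the 43 genes was -0.17, beside -0.02 for all genes tested, with 38 genes below 0 and 5 above. Between replicates of a group, the median level of the 43 genes had an SD of 0.11 on the log2 scale. Both control libraries lay below both untreated ones for 20 genes and above them for 2, where the same was true of 16.5% and 12.8% of all genes. The 13 mitochondrially encoded genes were also lower in control siRNA cells, at a median of -0.92, but the replicates differed. In replicate 1 their sum was 35959 FPKM with control siRNA against 36465 in untreated cells. In replicate 2 it was 17287 against 57791, so the gap lay mainly in replicate 2. Its part in the result was not tested.

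Knockdown of U2AF1 was compared with control siRNA. None of the 43 genes passed the main test, where 2.85% of all genes did, and 12 had an unadjusted p under 0.05. With the replicate number as a block, 6 passed, 14% of the 43, against 11.8% of all genes, so the share was close to the background. ORC6, the smallest subunit of the origin recognition complex, was at 30.7 and 28.6 FPKM with control siRNA and 47.6 and 51.1 with knockdown, a log2 difference of 0.72 (SE 0.25, adjusted p = 0.147, and 0.0172 with the block). RFC1, the large subunit of the clamp loader, was at 21.9 and 22.5 against 35.0 and 27.9 FPKM (log2 difference 0.48, SE 0.13, adjusted p = 0.072, and 0.0205 with the block). RFC5, a small subunit of the same complex, was at 41.1 and 39.6 against 53.3 and 57.0 (log2 difference 0.44, SE 0.12, adjusted p = 0.0853, and 0.0247 with the block). Both knockdown libraries lay above both controls in these 3 genes, as they did in 13 of the 43, beside 24.7% of all genes.

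The other 3 genes that passed only with the block were lower. POLA2 was at 29.8 and 37.3 FPKM with control siRNA and at 22 and 14.7 with knockdown (log2 difference -0.85, SE 0.23, adjusted p = 0.0754, and 0.034 with the block), the largest difference of the 43 in this comparison. CDC45, which joins MCM and GINS in the active helicase, was at 21.0 and 27.1 against 15.2 and 14.7 FPKM (log2 difference -0.64, SE 0.20, adjusted p = 0.113, and 0.0227 with the block). POLD2 was at 139 and 146 against 107 and 98.6 FPKM (log2 difference -0.47, SE 0.14, adjusted p = 0.0929, and 0.014 with the block). Both knockdown libraries lay below both controls in these 3, as they did in 11 of the 43, beside 26.7% of all genes, so that a lack of overlap was common in this comparison. RFC2, another clamp loader subunit, was at 40.9 and 41.7 FPKM with control siRNA and 32.6 and 32.4 with knockdown, and passed neither with nor without the block. Over the 43 genes 19 lay above 0 and 24 below, with a median of -0.03, beside -0.01 for all genes. Of the other pathway genes, 67 of which were tested, TK1 of thymidine salvage alone passed the main test, falling from 130 and 179 FPKM to 86.4 and 103 (log2 change -0.69, adjusted p = 0.0462), and it no longer passed without control siRNA replicate 2, knockdown replicate 1 or knockdown replicate 2 (adjusted p up to 0.258). With the block 13 of the 67 passed, 6 higher and 7 lower, beside 11.8% of all genes, 4.69% higher and 7.12% lower.

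Wild-type U2AF1, v1 and v3 together, was compared with the knockdown it was added to. RFC1 fell and was the only gene of the 43 to pass, where 1.43% of all genes passed and 0.386% fell. It was at 35.0 and 27.9 FPKM with knockdown and at 19.4, 17.6, 23.0 and 22.1 in the v1 and v3 wild-type libraries, all of which lay below both knockdown libraries (log2 change -0.59, SE 0.11, adjusted p = 0.0325). That call was lost when any of the 6 libraries was left out, with an adjusted p of 0.0724 to 0.220, and the log2 change was -0.43 without knockdown replicate 1. The gene lies at chr4:39289076-39367995 in GRCh37. With the replicate block, 7 of the 43 passed against 7.52% of all genes. These were RFC1, RFC5 (log2 change -0.47), the helicase subunit MCM7 (-0.40), ORC1 of the origin recognition complex (-0.58), the polymerase alpha subunit POLA1 (-0.54) and RPA2 (-0.38), which were lower, and POLA2, which was higher (0.88, adjusted p = 0.0574, and 0.0235 with the block). POLA2 stood at 30.5, 45.4, 30.7 and 31.7 FPKM with wild-type constructs, above both knockdown libraries. All wild-type libraries lay below both knockdown libraries for 16 of the 43 genes and above them for 5, beside 16.3% and 18.1% of all genes. The median of the 43 was -0.19 beside 0.02 for all genes, and all 6 MCM genes had log2 differences below 0, from -0.43 to -0.19. The median also moved between replicates. Against the untreated mean it was -0.44 and -0.13 in the v1 wild-type libraries and -0.41 and -0.30 in the v3 wild-type ones.

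Set against the control siRNA cells, which carry neither knockdown nor construct, the wild-type libraries showed no gene of the 43 past the main test, with 13 at an unadjusted p under 0.05 and 0.436% of all genes passing. With the block 5 of the 43 were lower, 11.6%, against 2.11% of all genes lower and 3.84% in either direction. These were the licensing factor CDT1 (log2 difference -0.64, adjusted p = 0.153, and 0.0408 with the block), GINS2 (-0.63, 0.129 and 0.0424), GINS3 (-0.46, 0.17 and 0.0491), POLA1 (-0.61, 0.0842 and 0.0147) and POLD2 (-0.39, 0.183 and 0.0329). CDT1 was at 17.2 and 24.3 FPKM with control siRNA and at 10.4, 13.7, 12.5 and 15.1 with wild-type constructs, and the groups did not overlap. POLA1 was at 15.8 and 16.8 FPKM against 12.3, 10.8, 10.1 and 8.46, again without overlap. Wild-type libraries lay below both controls without overlap for 9 of the 43 and above for 3, beside 13.1% and 13.9% of all genes. MCM4, MCM6, GINS2 and POLA1 had all 8 construct libraries, wild type and S34F, below all 4 libraries of the control siRNA and knockdown groups. That is 9.30% of the 43 beside 1.93% of all genes, and no gene of the 43 had all 8 above, beside 2.53% of all genes. The comparisons with control siRNA and with knockdown share the wild-type libraries.

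**Figure D2:**
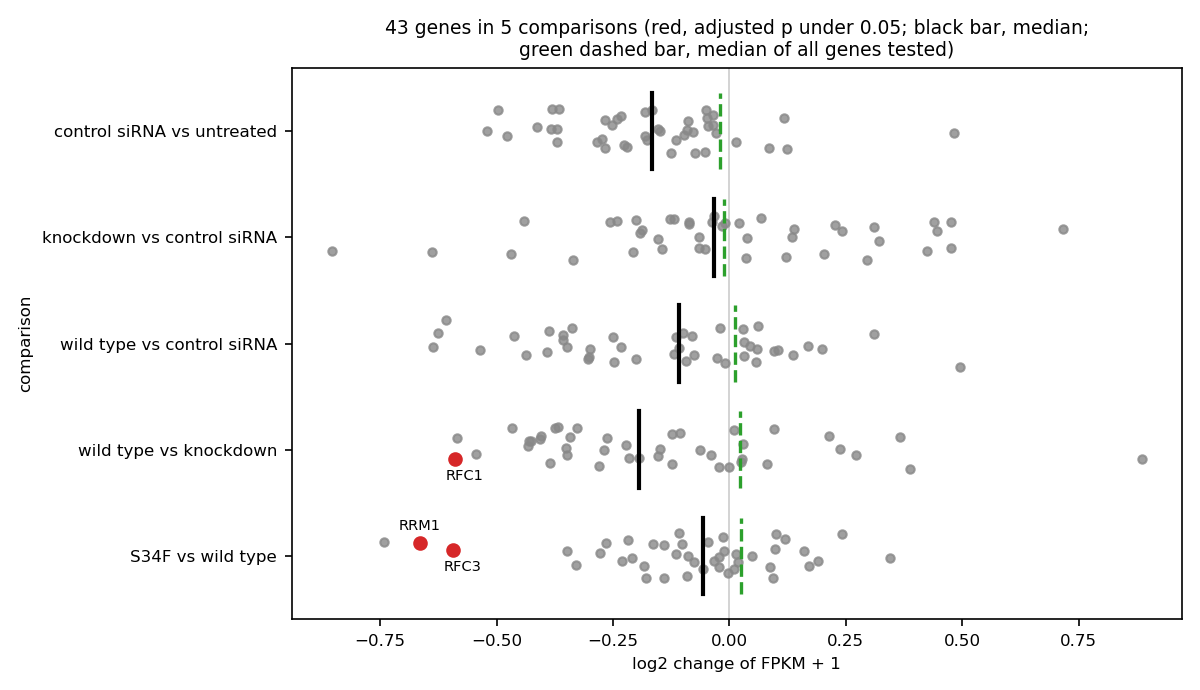
Each point is a gene of the 43, placed by its log2 change of FPKM + 1 in 5 comparisons, with calls at an adjusted p under 0.05 in red and medians as bars. RFC1 is the only red point for wild type against knockdown and RRM1 and RFC3 are those for S34F against wild type, while the black median lies below the green one in all 5 comparisons. The median level of the 43 genes had an SD of 0.11 between replicates of a group, a spread that the bars do not show.

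CDKN1A, an inhibitor of cyclin E with CDK2, moved with these groups. It was at 94.0 and 97.0 FPKM with control siRNA, 95.2 and 98.0 with knockdown, and 176, 133, 186 and 165 with wild-type constructs, and it rose against control (log2 change 0.77, SE 0.13, adjusted p = 0.0353) and against knockdown (0.75, SE 0.13, adjusted p = 0.0225). All wild-type libraries lay above the other 4. Of the 6 libraries that enter each comparison, leaving out v1 wild-type replicate 2 kept both calls, and leaving out any other ended them, with adjusted p up to 0.231 and 0.259. In untreated cells CDKN1A was at 52.9 and 42.6 FPKM, below both control siRNA libraries. That log2 difference, 0.99 for control siRNA against untreated, was larger than either rise with wild type but did not pass the main test. It was the largest rise in the list of other G1 genes. With the block, 1 of the 24 genes tested in that list passed as higher, beside 0.0141% of all genes. The S34F libraries also lay above control siRNA and knockdown, at 158 and 141 FPKM in v1 and 151 and 147 in v3. None of the other 66 pathway genes tested passed the main test for wild type against control or against knockdown. With the block, and CDKN1A included, 7 of the 67 passed against control and 9 against knockdown, beside 3.84% and 7.52% of all genes. Mitochondrially encoded genes were 0.82 higher at the median than with control siRNA on the log2 scale. Their sum in replicate 1 was 37943 and 37709 FPKM in v1 and v3 wild type, against 35959 with control siRNA. In replicate 2 it was 51139 and 48396 against 17287. The part of these genes in the result was not tested. The part of CDKN1A in the levels of the 43 genes was not tested either.

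S34F was compared with wild type over both constructs, 4 libraries against 4, and 2 of the 43 genes fell, RRM1 and RFC3. That is 4.65% of the 43, where 1.85% of all genes passed and 1.27% fell. RRM1, the large catalytic subunit of ribonucleotide reductase (chr11:4115937-4160106, GRCh37), was at 76.8 and 84.1 FPKM in v1 wild type, 77.6 and 75.9 in v3 wild type, 54.4 and 43.6 in v1 S34F, and 55.1 and 44.7 in v3 S34F. All S34F libraries lay below all wild-type ones, with means of 49.4 ± 6.16 and 78.6 ± 3.75 FPKM (SD, n = 4), so that S34F cells held 62.9% of the wild-type level. The log2 change was -0.67 (SE 0.09, adjusted p = 0.0071), and it passed with each of the 8 libraries left out in turn (adjusted p 0.00569 to 0.0459). In the knockdown RRM1 was at 79.1 and 75.1 FPKM and with control siRNA at 83.8 and 84.7, both above every S34F library. Its partner subunit RRM2 did not pass, at 115, 118, 98.8 and 90.0 FPKM with wild type and 141, 93.9, 139 and 83.6 with S34F, where both S34F replicates numbered 1 were high and both numbered 2 were low.

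RFC3, a small subunit of the clamp loader (chr13:34392186-34540695, GRCh37), was at 33.1 and 40.2 FPKM in v1 wild type, 34 and 35.9 in v3 wild type, 23.2 and 22.6 in v1 S34F, and 27.1 and 20.9 in v3 S34F. The groups did not overlap, and the means were 23.4 ± 2.66 and 35.8 ± 3.14 FPKM (SD, n = 4), or 65.4% of wild type (log2 change -0.59, SE 0.12, adjusted p = 0.0305). Of the 8 libraries, leaving out v3 S34F replicate 1 kept the call and leaving out any other lost it (adjusted p up to 0.131). POLE2, the accessory subunit of polymerase epsilon (chr14:50110273-50155140, GRCh37), had the largest log2 difference of the 43, -0.74 (SE 0.17), and missed the threshold (adjusted p = 0.0567, and 0.019 with the block, where 3 of the 43 passed against 7.98% of all genes). It was at 15.9, 20.3, 15.5 and 14.7 FPKM with wild type and at 6.93, 12.6, 8.11 and 11.1 with S34F, without overlap. Without v1 S34F replicate 2, the library with the dominant short isoform, RRM1 and POLE2 passed (adjusted p = 0.0208 and 0.0212) and RFC3 did not (0.106).

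**Figure D3:**
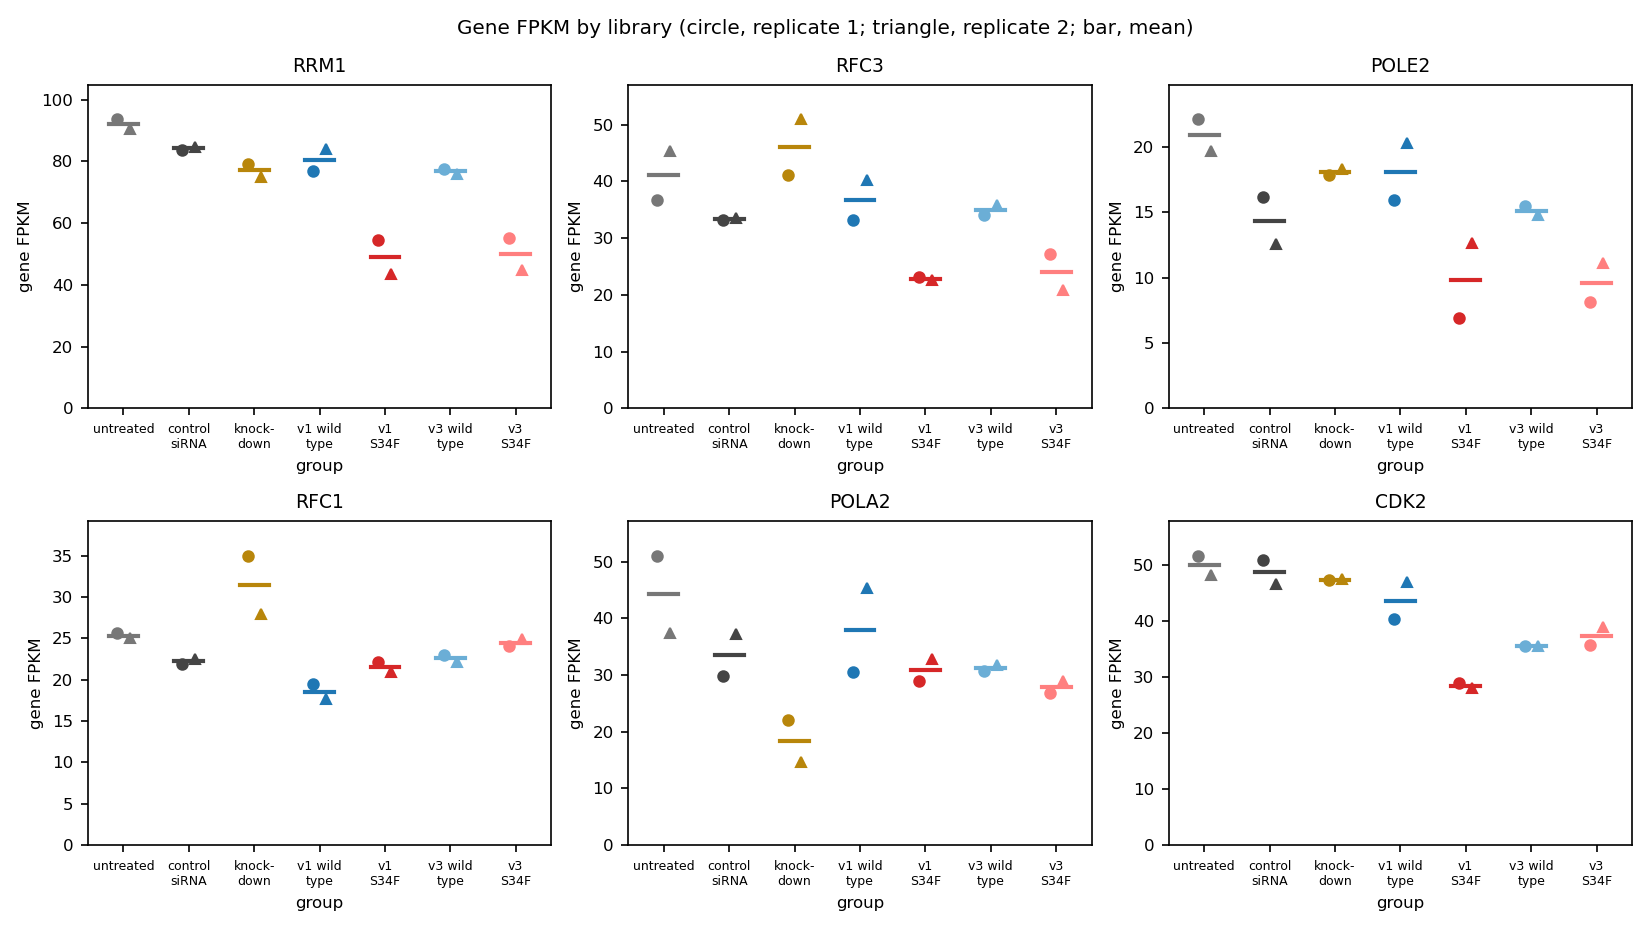
Gene FPKM of 6 of the genes in each library, by group, with a bar at the mean of the 2 replicates. RRM1, RFC3 and POLE2 are lowest in the v1 S34F and v3 S34F groups, RFC1 is highest and POLA2 lowest in the knockdown, and CDK2 is lowest in v1 S34F.

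The other 41 genes did not pass for S34F. After POLE2 the next by size were FEN1, the flap endonuclease of Okazaki fragments (log2 difference -0.35, adjusted p = 0.222), CDT1 (0.34, 0.269), GINS2 (-0.33, 0.243), POLD3 (-0.28, 0.468) and CDK2 (-0.26, 0.128). Over the 43 genes 29 lay below 0 and 14 above, with a median of -0.06 beside 0.02 for all genes. The constructs differed in this. In v1 alone 32 lay below 0 and 11 above (median -0.10), and in v3 alone 22 below and 21 above (median -0.0024). The S34F libraries lay below all wild-type ones for 4 genes and above for 1, beside 6.65% and 6.89% of all genes. All 6 helicase activators (-0.33 to -0.01, with no call) and 5 of the 6 clamp and loader genes lay below 0, while 3 of the 4 licensing genes lay above. The polymerase and primase genes were split, 4 above and 5 below, as were the MCM genes, 2 above and 4 below. Of all 14233 genes 6454 lay below 0. Among the 18 genes with an E2F word the median was -0.11 with 12 below 0, and among the 17 matched genes without a word it was -0.01 with 10 below 0. The medians with and without a word were -0.09 and 0.02 for knockdown against control, -0.11 and -0.11 for wild type against control, and -0.14 and -0.22 for wild type against knockdown, so the order was not the same in all 4 comparisons. None of these differences was tested.

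Other genes of the same pathway that fell with S34F were TOP2A, WDHD1, RBL1 and POLE4, 4 of the 67 tested, and none rose. Of all genes 1.27% fell and 0.583% rose. With the block 11 of the 67 fell and none rose, beside 4.71% and 3.27% of all genes. The lists were chosen with earlier results of these data known, so these shares are not independent of the data. TOP2A, the topoisomerase that untangles replicated DNA, was at 187, 184, 184 and 185 FPKM with wild type and 103, 84.7, 129 and 100 with S34F (log2 change -0.84, SE 0.09, adjusted p = 0.00294). WDHD1, which links polymerase alpha to the helicase, was at 26.1, 26.3, 26.5 and 24.3 FPKM against 12.5, 11.5, 14.7 and 15.2 (log2 change -0.90, SE 0.11, adjusted p = 0.00401). The wild-type and S34F libraries did not overlap for either gene, and both passed with each of the 8 libraries left out in turn. POLE4, a small subunit of polymerase epsilon, fell (log2 change -0.57, SE 0.11, adjusted p = 0.0305), and RBL1, a retinoblastoma family repressor of E2F targets, fell as well (log2 change -0.67, SE 0.14, adjusted p = 0.0354). Leaving out single libraries ended both calls in most cases, 6 of 8 for POLE4 (all but v1 and v3 S34F replicate 1) and 7 of 8 for RBL1 (all but v1 S34F replicate 1). Of the A549 markers, all 8 lay below 0 with S34F at a median of -0.17, ALDH3A1 fell (log2 change -0.54, adjusted p = 0.0427), and their sum ran from 6229 to 7934 FPKM in S34F libraries against 7757 to 8447 in wild-type ones. Their part in the result was not tested.

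Within each construct, with 2 libraries against 2, no gene of the 43 passed for S34F in v1 (0.176% of all genes passed) or in v3 (0.0211%), with 9 and 3 at an unadjusted p under 0.05. RRM1 had similar sizes in both, -0.71 (SE 0.13, adjusted p = 0.0683) in v1 and -0.62 (SE 0.13, adjusted p = 0.168) in v3. With the block it passed in v1 (0.016, where 2.17% of all genes passed) and in v3 (0.0476, where 0.485% did). RFC3 was at -0.65 and -0.54, and POLE2 at -0.87 and -0.62, with no call in either fit. CDK2, the kinase partner of cyclin E, was at 40.3 and 46.9 FPKM in v1 wild type and 28.9 and 27.9 in v1 S34F (log2 difference -0.60, SE 0.11, adjusted p = 0.0702, and 0.0196 with the block). In v3 it was at 35.5 and 35.5 FPKM with wild type and 35.6 and 38.9 with S34F. WDHD1 and TOP2A passed in v1 (-1.07, adjusted p = 0.0237, and -0.98, adjusted p = 0.0213), calls that were lost without either v1 wild-type library or v1 S34F replicate 2 (adjusted p up to 0.212), and for WDHD1 also without v1 S34F replicate 1 (0.0584).

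The difference between the S34F effect in v3 and that in v1 was tested itself, and no gene of the 43 passed, where 0.0% of all genes did. CDK2 had the smallest unadjusted p, with a difference of 0.66 (SE 0.16, 95% interval 0.32 to 1.01), an unadjusted limma p of 0.00146 and an adjusted p of 1. It was the only gene of the 43 with an unadjusted p under 0.05. The difference lay above 0 for 35 of the 43 genes and below for 8, with a median of 0.14 beside 0.0031 for all genes. That direction over the 43 genes was not tested. For RRM1 the interval was -0.31 to 0.50, for RFC3 -0.39 to 0.63 and for POLE2 -0.51 to 1.01, so that sizeable differences between the constructs in either direction remain within the error. The half-width of these intervals was 0.49 at the median of the 43 genes. Wild-type v3 against wild-type v1 likewise gave no call among the 43 or among all genes (0.0%), with 1 gene of the 43 at an unadjusted p under 0.05, CDK2, at -0.28 (SE 0.11, adjusted p = 1).

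**Figure D4:**
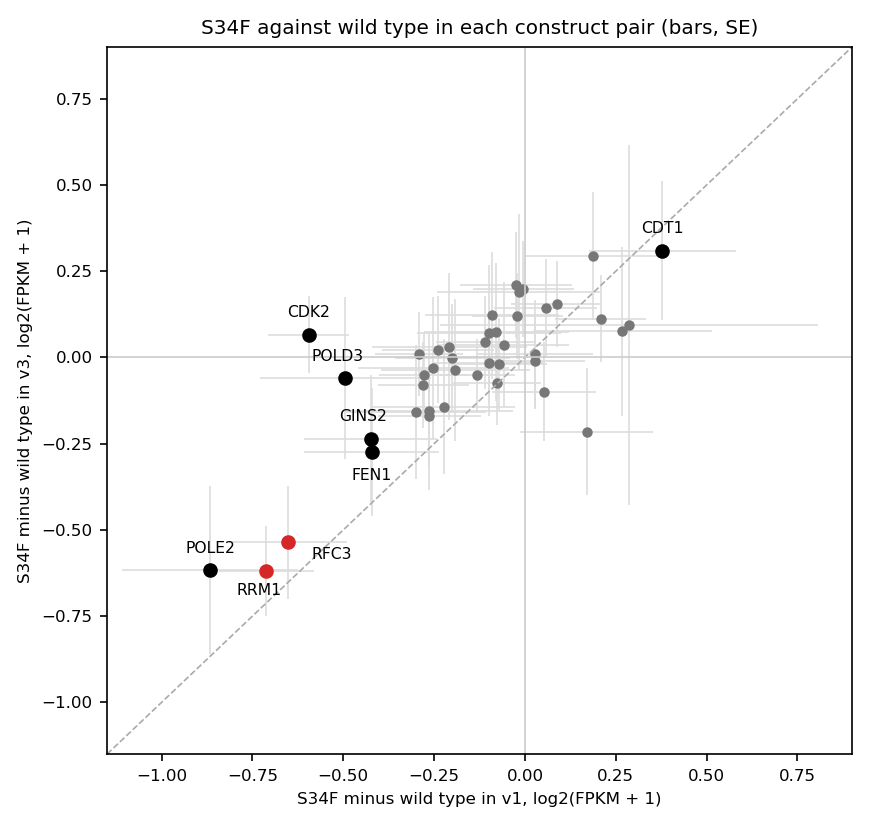
Each point is a gene of the 43, with the log2 difference of S34F from wild type in v1 across and in v3 upward, bars of 1 SE on each, and a dashed line of equality. RRM1 and RFC3 (red) and POLE2 lie low in both constructs, while CDK2 is at -0.60 in v1 and near 0 in v3.

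The replicate numbers carried part of the spread. POLE, the catalytic subunit of polymerase epsilon, was higher in replicate 2 than in replicate 1 in all 7 groups, for instance 28.7 and 68.8 FPKM in v1 S34F and 20.5 and 44.6 in v3 S34F. LIG1 and E2F1 were also higher in replicate 2 throughout, and CCNE1, cyclin E1, was higher in replicate 1 throughout. That is 6.98% and 2.33% of the 43 genes, beside 11.2% and 9.98% of all genes, so the 43 did not hold more of such genes than the background.

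Isoform usage, the share of a gene's FPKM that falls on an isoform, was tested for 118 of the 381 listed isoforms of the 43 genes, from 38 of them. The most abundant isoform held at least 50% of the gene's FPKM in 33 genes and at least 80% in 14. Only 1 isoform passed in any of 4 comparisons, and none did for control siRNA against untreated, where 0.00479% of all isoforms passed. POLD3, an accessory subunit of polymerase delta, gained its isoform with retained intron (ENST00000530163) when wild-type constructs were compared with knockdown, where 0.362% of all 41727 isoforms tested passed. It made up 5.91 and 6.74% of POLD3 with knockdown, 27.1 and 39.9% in v1 wild type and 32.1 and 38.9% in v3 wild type (difference 28.2 points, SE 4.30, adjusted p = 0.0409). In control siRNA cells it was at 7.27 and 7.81%, in untreated cells at 6.85 and 12%, and in the S34F libraries at 22.3, 32.1, 24.5 and 29.3%. All 8 construct libraries lay above all 6 others. The isoform itself was at 1.41 and 1.51 FPKM with knockdown and 6.76, 16.0, 7.80 and 10.1 FPKM with wild type, while the full-length isoform (ENST00000263681) was at 14.8 and 12.3 and at 11.9, 18.5, 13.8 and 13.4. The usage call held without v1 wild-type replicate 1 and was lost without any of the other 5 libraries (adjusted p up to 0.197). The share of POLD3 in coding isoforms differed by -29.0 points (SE 4.53, adjusted p = 0.0577, and 0.041 with the block). With the block 0.187% of 7486 genes passed. In the main test none of the 28 genes tested for this share passed for wild type against knockdown, knockdown against control or S34F against wild type, where 0.0801%, 0.0% and 0.227% of the 7486 did.

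RFC2, another small subunit of the clamp loader, came next with knockdown. Its full-length isoform (ENST00000055077) made up 70.6 and 69.7% with control siRNA, 55.7 and 52.4% with knockdown, and 75.1, 68.3, 64.0 and 65.2% with wild-type constructs. The differences were -16.1 points (SE 3.15, adjusted p = 0.104) for knockdown against control and 14.1 points (SE 2.73, adjusted p = 0.08) for wild type against knockdown, neither a call, where 0.117% of isoforms passed for knockdown against control. Both knockdown libraries lay below all others. The isoform subject to decay (ENST00000480432), which lacks the exon 4 printed above, made up 10.6 and 6.59% with control siRNA and 17.3 and 18.2% with knockdown, a range that the v3 wild-type libraries overlapped at 19.4 and 14%. Summed over the isoforms that span it, exon 4 was skipped in 21 and 12.7% in untreated cells, 11.2 and 10.7% with control siRNA, 27.8 and 32.4% with knockdown, and 14.2, 10.6, 21.1 and 15.9% with wild-type constructs. These exon percentages were chosen after their values were seen and carry no test.

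For S34F the 4 isoforms of the 43 genes with the smallest unadjusted p belonged to CCNE1 and RFC3, and none passed in the main test (0.748% of all isoforms did). The CCNE1 isoform without exon 9 (ENST00000576532) made up 4.92, 2.83, 7.91 and 1.73% with wild type and 20.5, 11.1, 16.1 and 12.6% with S34F, without overlap. The difference was 10.7 points (SE 3.05, adjusted p = 0.174, and 0.0459 with the block, where 1.14% of isoforms passed). In the knockdown it was at 11.3 and 8.22%. Exon 9 was skipped in 5.22, 3.09, 8.29 and 1.95% with wild type and 23.1, 13.3, 17.7 and 15.7% with S34F. Its acceptor has a T before the AG, and the part of that base in the skipping was not tested. The longest CCNE1 isoform listed among the tested ones (ENST00000262643) differed by -12.2 points (SE 3.04, adjusted p = 0.12). In RFC3 the shorter of its 2 isoforms (ENST00000434425) made up 4.21, 1.67, 3.73 and 0.861% with wild type and 11.9, 13.9, 7.56 and 6.10% with S34F (difference 7.25 points, SE 2.02, adjusted p = 0.166). The groups did not overlap, and the longer RFC3 isoform (ENST00000380071) was at 31.7, 39.5, 32.8 and 35.6 FPKM with wild type and 20.4, 19.4, 25.1 and 19.6 with S34F.

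**Figure D5:**
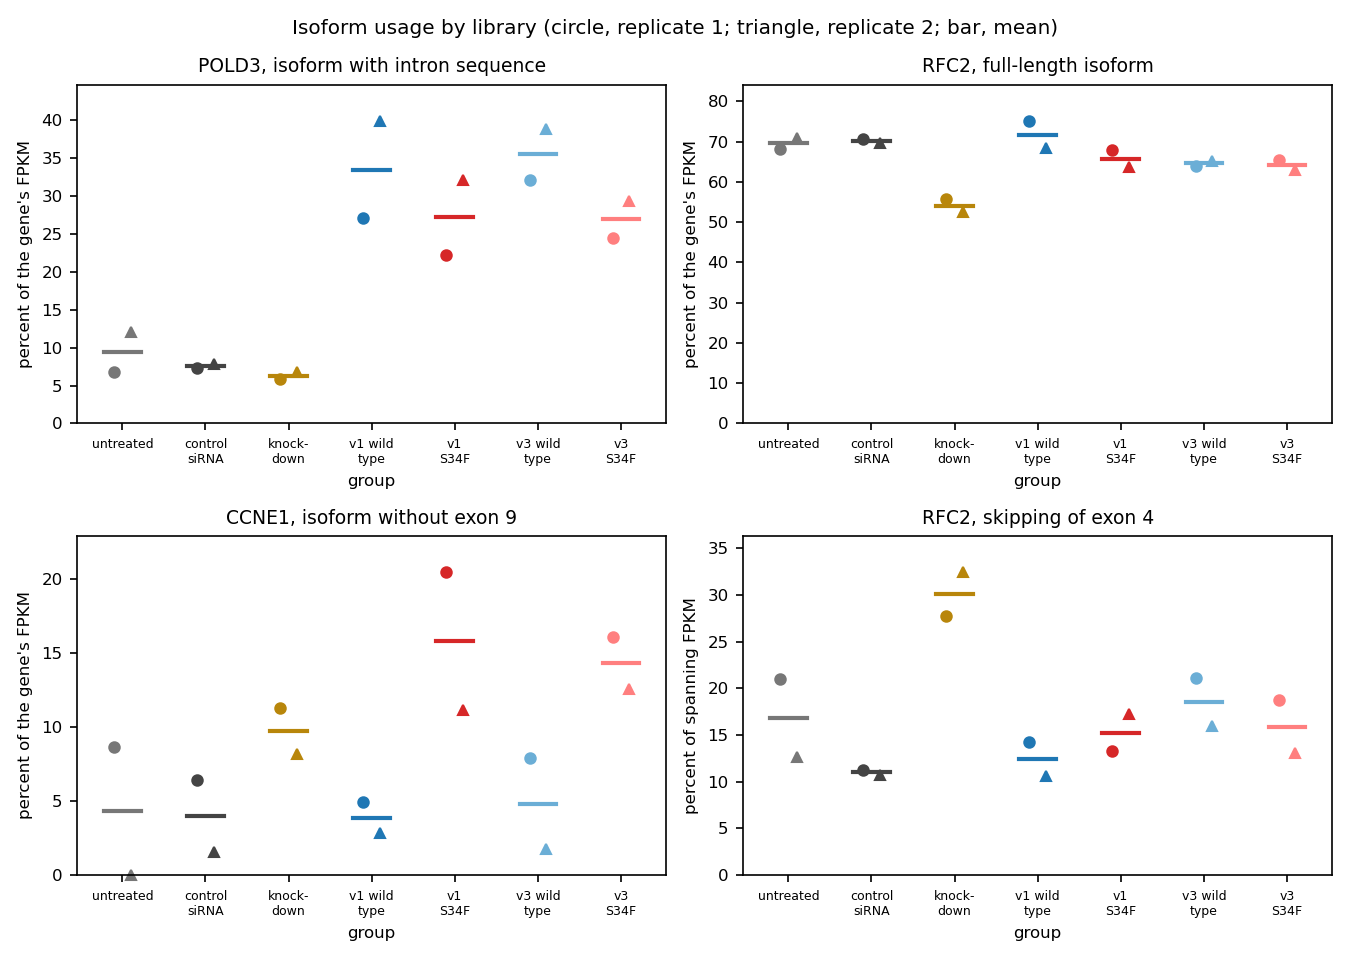
Percent of a gene's FPKM on 1 isoform (POLD3, RFC2, CCNE1) and percent of spanning FPKM that skips RFC2 exon 4, by library, with a bar at the mean of the 2 replicates. The POLD3 isoform is at 22.3 to 39.9% in the construct libraries and at most 12% elsewhere, the full-length RFC2 isoform is lowest in the knockdown, and the CCNE1 isoform is at 11.1 to 20.5% in the S34F libraries.

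Over all 43 genes, 105 internal exons are spanned by an intron of another matched isoform, and 44 of them, in 19 genes, had a mean skipping of 5 to 95% with at least 1 FPKM on the isoforms compared. With S34F all 4 libraries skipped 4 of these exons more than all 4 wild-type libraries and 4 of them less, 9.09% each way, where the same rule over 15632 exons of 6407 genes gave 7.22% and 4.23%. Those skipped more were in MCM3, RFC2, LIG1 and CCNE1, and those skipped less in RFC1, RFC2, POLE2 and LIG1. Of 5 exons with a T before the AG, 1, that of CCNE1, was skipped more with S34F and 0 less. These 5 lie in 3 genes, and those of MCM7 lie in 1 stretch that the same isoform skips, so they are not separate events. Of 10 with a C there, 0 were skipped more and 0 less. The base could not be read for 28 of the 44, which include 3 of those skipped more and 3 of those skipped less. With knockdown 15 exons were skipped more in both libraries than in both controls and 10 less, or 34.1% and 22.7%, beside 29.7% and 14.3% of all exons. For RRM1, whose fall in level passed without any 1 library, the main isoform (ENST00000300738) held most of the FPKM in both groups. Its share was 92.8 to 98.6% with wild type and 86.5 to 92.5% with S34F, without overlap. No share of all isoforms is given for such a lack of overlap. In the limma test, the share of RRM1 in coding isoforms differed by -4.48 points (SE 2.34, adjusted p = 0.565), not a call.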

How the data were processed

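The submitters' processing notes list Trimmomatic 0.30, TopHat2 2.0.12 and GRCh37. No source used here names the quantifier or its annotation. Per the file headers, the authors deposited an FPKM and a coverage value for each of 195553 isoforms in every library, with no stated scaling between libraries. Coverage divided by FPKM gave relative depth only, so counts were not modelled. Gene FPKM was summed over isoforms. Genes with a mean of at least 1 FPKM, 14233 after 11 with a failed estimate were left out, were fitted with limma 3.58.1 (R 4.3.3, intensity trend) on log2(FPKM + 1), a scale that shrinks the changes of weakly expressed genes. All 14 libraries shared 1 estimate of the spread (7 residual and 3.92 prior degrees of freedom). Benjamini-Hochberg adjusted p-values under 0.05 were called, over all genes of a comparison. Usage in percent was fitted the same way without the trend for 41727 isoforms with a mean usage of 5 to 95%, as was the share in isoforms that GENCODE release 29 types as coding, for 7486 genes. On simulated data for knockdown against control, changes of 1 and 2 on the log2 scale were recovered in 58% and 93% of changed genes, with 9 false calls over 14233 genes. The main tests held no term for the replicate number. The deviations of replicates were correlated between groups for all 21 pairs of groups (0.160 to 0.571). A second fit with the replicate number as a block was therefore run beside each test. Exon skipping used isoforms whose length equals that in GENCODE. Named genes were those of the 43 and of the other pathway lists that passed, the 8 of the 43 with the largest differences in a comparison, and the 4 isoforms with the smallest p, of which the text gives the main ones. Alternatives were upper quartile scaling, quantile normalization, a pseudocount of 0.1, other limits on FPKM, only the compared groups, the arcsine square root of usage, the block, and each library left out in turn. The 43 genes, the lists and the exons were chosen with earlier results of these data known.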

Additional observations from a re-analysis of the deposited data

How the results depend on the processing

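Of the counts of called genes and isoforms, 126 of 160 alternative values stayed within 1.5 times the main count. Counts of 0 that stayed at 0 are included, and most main counts were 0. Those above 0 were wild type against knockdown (1), S34F against wild type (2) and usage for wild type against knockdown (1). The replicate block raised the count from 0 to 6 for knockdown against control, from 1 to 7 for wild type against knockdown, from 0 to 5 for wild type against control, from 0 to 2 and 0 to 1 for S34F in v1 and v3, from 0 to 1 for isoform usage with S34F and from 0 to 1 for coding share with wild type against knockdown. For S34F over both constructs it added POLE2 to RRM1 and RFC3 (3 called), and it changed no other call among the 43 genes. With only the compared groups in the fit, no gene passed (0) for wild type against knockdown or S34F against wild type, with fewer degrees of freedom. Upper quartile scaling gave 2 for wild type against knockdown, quantile normalization 1 for knockdown against control, and no filter on low values 1 for S34F against wild type, with more genes tested. For wild type against knockdown, usage gave 0 with an arcsine square root transform and 2 among genes of at least 5 FPKM, where coding share gave 1. Otherwise the cause was not tested. Leaving out each library in turn gave 0 to 0 genes for wild type against knockdown, 1 to 2 for S34F, 0 to 1 for S34F in v1, and 0 to 1 for usage and for coding share of wild type against knockdown. Of 114 single values, 5 alternatives turned the sign, all of differences that did not pass. Wild-type v3 against v1 ran from -0.81 to 0.11 for POLE (0.063 without v3 wild-type replicate 1), -0.65 to 0.00492 for POLD3 and -0.53 to 0.031 for POLA2, and the v3 minus v1 S34F difference from -0.14 to 0.64 for POLE2. Counts over all genes moved too, with 1681, 1070, 547 and 1136 called with the block and 0, 20, 1 and 39 with only the compared groups, for knockdown against control, wild type against knockdown, wild type against control and S34F against wild type, beside 405, 203, 62 and 264. S34F in v1 and v3 gave 309 and 69 with the block, beside 25 and 3, and 51 and 21 with no filter. Without a filter, knockdown against control gave 241. Leaving out 1 library gave 15 to 274, 5 to 57, 5 to 34 and 47 to 332 for the 4 comparisons in the order above. For usage the block gave 107 and 476 isoforms for knockdown against control and S34F, beside 49 and 312, and for coding share 14 and 104 genes for wild type against knockdown and S34F, beside 6 and 17. Among genes of at least 5 FPKM usage gave 112, 273 and 548 for knockdown, wild type and S34F, beside 49, 151 and 312, and the arcsine transform gave 19 and 16 for knockdown and wild type. Absolute read numbers are unknown, so the precision of low isoforms is known only from replicates.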
